A study of Mus musculus with 6 samples.

Results

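The p53 and apoptosis regulators described here were 10 mouse genes taken by symbol: *Trp53*, *Mdm2*, *Cdkn1a*, *Cdkn2a*, *Ccng1*, *Bax*, *Bbc3*, *Bcl2*, *Bcl2l1* and *Mcl1*. They were 10 of the 55367 gene symbols listed for every library, and all 10 passed the filter on low values, which kept 14862 symbols. RNA-seq of polyA RNA covered kidney cells that bind Dolichos biflorus agglutinin (DBA), a plant lectin with affinity for collecting duct epithelium, at Day115 in 3 groups of 2 libraries. WT animals received saline and carried intact *Pkd1*, ADPKD animals received saline and were *Pkd1*-/-, and ADPKD+MMPP animals were *Pkd1*-/- and received MMPP, a melanin-like nanoparticle that carries Mn2+ and a polyethylene glycol coat. *Pkd1* encodes polycystin 1, and its loss gives a mouse model of autosomal dominant polycystic kidney disease (ADPKD). In the study's methods the *Pkd1*-/- animals were male *Pkd1* fl/fl;Cre/Esr1+ mice, in which tamoxifen switches on a Cre that is not limited to 1 cell type, so *Pkd1* could also be lost outside the tubule. Whether the WT mice carried the Cre and received tamoxifen is not given in the sources used here, nor is whether the 2 libraries of a group came from separate mice. The p-values therefore measure the spread between these libraries, which may be technical.

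The p53 protein, encoded by *Trp53*, is a transcription factor that accumulates after DNA damage and other stresses. Its best known targets halt the cell cycle (*Cdkn1a*), return a brake on p53 itself (*Mdm2*, *Ccng1*) or open the mitochondrial route to cell death (*Bax*, *Bbc3*). In that route BAX and BAK1 permeabilise the outer mitochondrial membrane, BH3-only proteins such as PUMA (the product of *Bbc3*) set them free, and BCL-2, BCL-XL (*Bcl2l1*) and MCL-1 hold them back. In polycystic kidneys cyst epithelium is known both to proliferate and to undergo apoptosis.

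To show p53 half-site letters near the starts of these genes, the 250 bases before a RefSeq transcript start (GRCm38.p6) were printed. This was done for the members in which the letters were found. The half-site searched has 10 bases, 3 purines, C, A or T, A or T, G and 3 pyrimidines, read on both strands; a full p53 response element is made of a pair of these. All 10 members had at least 1 promoter window of 250 bases before and 50 after a start, with 16 windows in all. The letters stood in 5 of the 16 windows, 1 each of *Cdkn1a*, *Mdm2*, *Ccng1*, *Bax* and *Trp53*, beside 8.36% of all 32851 promoter windows of the same length. In the sequences, written 5′ to 3′ on the strand of the gene, capitals mark the half-site letters and the last base adjoins the start.
*Cdkn1a* (chr17:29090729-29090978, plus strand): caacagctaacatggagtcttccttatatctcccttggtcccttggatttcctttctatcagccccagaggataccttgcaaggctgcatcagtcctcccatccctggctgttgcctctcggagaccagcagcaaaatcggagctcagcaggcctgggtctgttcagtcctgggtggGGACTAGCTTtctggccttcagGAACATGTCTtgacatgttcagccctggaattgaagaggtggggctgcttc
*Mdm2* (chr10:117710759-117711008, minus strand): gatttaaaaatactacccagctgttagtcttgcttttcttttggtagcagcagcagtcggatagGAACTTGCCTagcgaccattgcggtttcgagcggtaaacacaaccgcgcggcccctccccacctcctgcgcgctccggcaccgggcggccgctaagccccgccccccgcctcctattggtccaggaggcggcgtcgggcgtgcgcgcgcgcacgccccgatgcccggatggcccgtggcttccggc
*Ccng1* (chr11:40755287-40755536, minus strand): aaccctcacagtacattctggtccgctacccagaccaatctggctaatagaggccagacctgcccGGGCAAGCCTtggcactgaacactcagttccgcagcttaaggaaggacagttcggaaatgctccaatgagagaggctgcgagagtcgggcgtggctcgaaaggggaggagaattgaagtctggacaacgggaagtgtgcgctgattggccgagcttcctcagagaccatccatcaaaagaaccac
*Bax* (chr7:45466899-45467148, minus strand): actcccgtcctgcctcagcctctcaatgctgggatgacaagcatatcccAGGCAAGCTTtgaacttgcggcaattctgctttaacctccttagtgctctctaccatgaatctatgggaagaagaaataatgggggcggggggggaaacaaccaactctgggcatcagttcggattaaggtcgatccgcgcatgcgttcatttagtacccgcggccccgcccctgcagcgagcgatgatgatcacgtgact
*Trp53* (chr11:69580109-69580358, plus strand): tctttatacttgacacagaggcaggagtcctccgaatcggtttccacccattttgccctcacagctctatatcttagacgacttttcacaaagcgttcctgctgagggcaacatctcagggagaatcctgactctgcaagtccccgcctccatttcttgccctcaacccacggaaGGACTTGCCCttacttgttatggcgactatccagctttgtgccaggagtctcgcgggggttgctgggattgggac
*Cdkn1a* held the letters at 2 places of the printed window, which begin 73 and 51 bases before that start. The window of its other start, which lies downstream (chr17:29093519-29093818), held none. The letters began 186 bases before the start in *Mdm2*, 185 in *Ccng1*, 201 in *Bax* and 75 in *Trp53*. The palindromic cAMP response element TGACGTCA, the site of CREB, stood in 0 of the 16 windows and in 1.79% of all windows. Its shorter form TGACG stood in 4 of the 16 windows, those of *Bcl2*, *Mcl1*, *Mdm2* and 1 of *Bbc3*, and in 20.8% of all windows. A match is a description of letters, and binding was not measured. Sites outside the windows were not searched, and whether the 2 places of *Cdkn1a* act as a pair was not tested.

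The libraries differed in ways that touch every value below. FPKM multiplied by exon length in GENCODE vM21 fell on steps of single reads, which gave depths of 30.6 to 33.1 M reads in the WT and ADPKD libraries and of 10.9 and 11.8 M in ADPKD+MMPP. Among the low values the share of odd read numbers was 36.9% to 38.6% in WT and ADPKD and 7.96% and 8.32% in ADPKD+MMPP. *Pkd1*, read over the whole gene as a check of the genotype, had FPKM of 17.7 and 17.2 in WT, 7.64 and 8.91 in ADPKD and 4.34 and 3.99 in ADPKD+MMPP. Its log2 change between ADPKD+MMPP and ADPKD was -0.84, and -0.18 and not called when centred by transcript structure as described below. Markers of principal cells, the main cell of the collecting duct, were expressed in all groups apart from *Avpr2*, at 0.0587 FPKM or below. The summed FPKM of the list was 2160 to 2850 in WT, 2560 and 985 in ADPKD replicates 1 and 2, and 5570 to 5590 in ADPKD+MMPP. *Aqp2* alone held 3550 and 3500 of the ADPKD+MMPP sums. Of the 10 tested principal cell markers 5 were higher and 2 lower after MMPP than in ADPKD, and 3 higher and 1 lower when centred in that way. Of all tested genes 27.9% were higher and 43.0% lower in that comparison, and 58.4% of the centred genes were called in either direction. Other cells contributed as well: summed FPKM of macrophage and leukocyte markers was 77.2 to 80.9 in WT, 574 to 688 in ADPKD and 1200 to 1250 in ADPKD+MMPP, and that of intercalated cell markers was 501 to 508, 85 to 147 and 273 to 280. Proximal tubule markers summed to 130 to 230, 149 to 353 and 3000 to 3040, and those of endothelium to 645 to 775, 290 to 305 and 116. The macrophage and leukocyte list was divided after MMPP: of its 13 tested markers 7 were higher and 6 lower than in ADPKD, and 3 higher and 2 lower when centred by transcript structure as described below. The same shares of all genes stand beside these counts. *Lyz2*, at FPKM of 188 and 224 in ADPKD and 568 and 565 in ADPKD+MMPP, made up much of the sum, while *Csf1r* went from 17.0 and 25.6 to 0.381 and 0.190 and *Itgam* was at 0 in the files of both treated libraries. In such bulk samples fewer cells of a type and less RNA per cell cannot be told apart.

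To ask what loss of *Pkd1* was accompanied by in this pathway, ADPKD was compared with WT. *Cdkn2a* and *Ccng1* were higher in ADPKD, *Mdm2*, *Bax*, *Bbc3* and *Mcl1* had higher values in both ADPKD libraries that did not reach a 1.5-fold change, and *Trp53* and *Bcl2* had lower values that did not reach it either. *Cdkn1a* and *Bcl2l1* overlapped between the groups. A call needed a 1.5-fold difference and an unadjusted P under 0.05 in limma on log2(FPKM + 1), and a log2 change below is a difference of group means on that scale, which understates the change of low genes. By this rule 2 of the 10 members were called higher and 0 lower, beside 14.2% and 12.5% of all tested genes. The median log2 change was 0.33 over the members and 0.03 over all tested genes. The libraries did not overlap for 8 of the 10, beside 67.0% of all tested genes. Centred within bins of transcript structure, a scale described with the MMPP comparison, 2 members were called higher and 1 lower, beside 27.2% of genes.

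**Figure D1:**
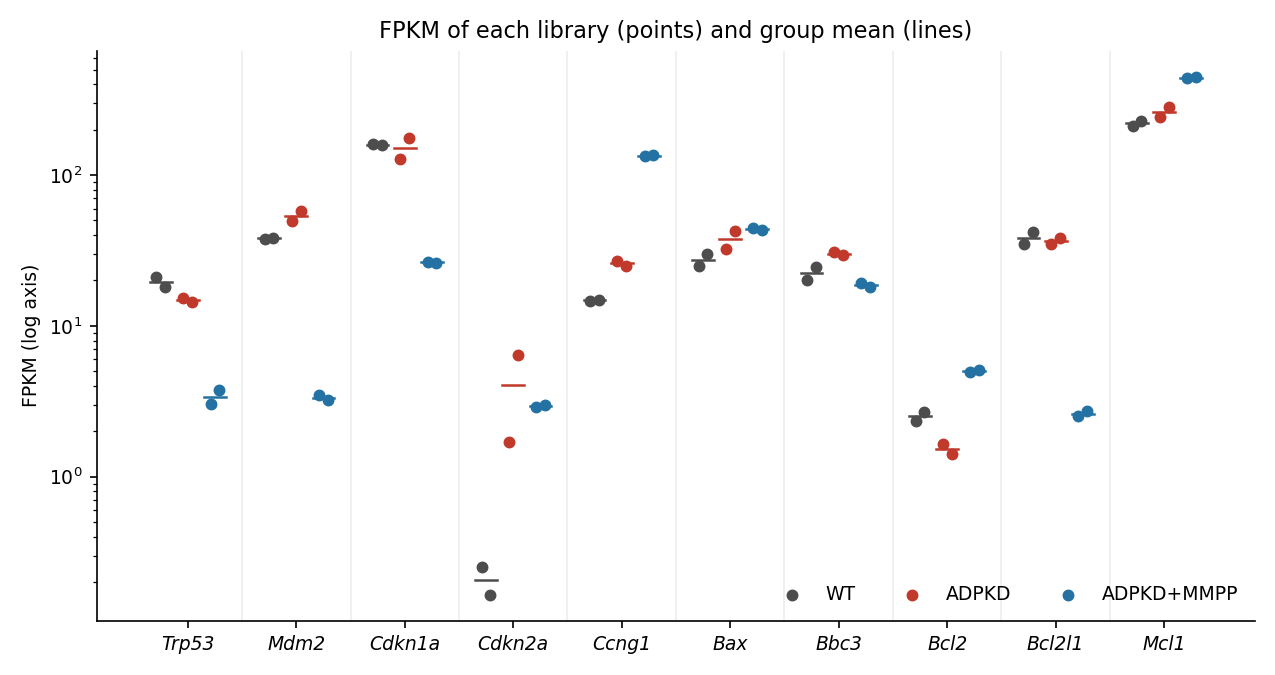
FPKM (log axis) of each of the 10 regulators in the 6 libraries; points are libraries and short lines are the means of the 2 libraries of a group. *Mdm2*, *Bcl2l1*, *Cdkn1a*, *Trp53* and, by little, *Bbc3* sit lower in both ADPKD+MMPP libraries than in the other 4. *Ccng1*, *Mcl1*, *Bcl2* and, by little, *Bax* sit higher. The ADPKD points of *Cdkn2a* lie at 1.70 and 6.39.

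*Trp53* (chr11:69580359-69591873, plus strand) had FPKM of 21.1 and 18.0 in WT and 15.4 and 14.3 in ADPKD. Both ADPKD libraries lay below both WT libraries. The log2 change was -0.37 (SE 0.15, adjusted p = 0.119), below the 1.5-fold rule. *Mdm2* (chr10:117688875-117710758, minus strand), the ubiquitin ligase that removes p53 and is itself its target, had 37.9 and 38.0 in WT and 49.3 and 57.7 in ADPKD. Its libraries did not overlap, and its log2 change of 0.48 (SE 0.13, adjusted p = 0.0441) corresponded to a 1.4-fold difference, below the size needed for a call. The transcript of the ligase thus had FPKM of 53.5 ± 5.95 in ADPKD against 38.0 ± 0.126 in WT (SD, n = 2 each), while that of its substrate had 14.8 ± 0.774 against 19.5 ± 2.21 (SD, n = 2 each).

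Among the genes of cell cycle arrest, *Cdkn1a* (chr17:29090976-29100727, plus strand) encodes p21, the CDK inhibitor through which p53 stops the cycle. It had FPKM of 160 and 158 in WT and of 128 and 175 in ADPKD. The ADPKD libraries lay on either side of WT, and the log2 change was -0.09 (SE 0.17, adjusted p = 0.733). It changed sign to 0.13 without ADPKD replicate 1. Of its exon bases 7.68% overlap an antisense gene, whose reads cannot be separated where strand was not used. *Ccng1* (chr11:40748552-40755311, minus strand), which encodes cyclin G1, a p53 target that recruits a phosphatase to MDM2, had 14.6 and 14.9 in WT and 27.1 and 24.9 in ADPKD. Every ADPKD value exceeded every WT value and the replicates were close. It rose 1.71-fold, with a log2 change of 0.78 (SE 0.11, adjusted p = 0.00794), and remained called in each alternative except the 2-fold rule. These calls rest on unadjusted P, and its adjusted p did not stay under 0.05 in every alternative.

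*Cdkn2a* (chr4:89274471-89294653, minus strand) encodes from alternative first exons both a CDK inhibitor, INK4A, and ARF, which blocks MDM2; the deposited value is 1 number for both. It had FPKM of 0.251 and 0.165 in WT, or 9 and 6 reads, and of 1.70 and 6.39 in ADPKD, or 66 and 240 reads. The ADPKD libraries were both higher than WT but far from each other. The log2 change was 1.89 (SE 0.45, adjusted p = 0.0300). It was 2.61 without ADPKD replicate 1 and 1.16 without ADPKD replicate 2, and adjusted p = 0.0742 when only the 4 libraries of this comparison entered the fit. The library with 6.39 is the one whose principal cell markers summed to 985, and the part of cell makeup in the *Cdkn2a* values was not tested.

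Neither pro-apoptotic member was called. *Bax* (chr7:45461697-45466898, minus strand), the pore-forming effector, had FPKM of 25.0 and 29.8 in WT and 32.2 and 42.6 in ADPKD. Both ADPKD values were above the WT values, by little for replicate 1. The log2 change was 0.43 (SE 0.17, adjusted p = 0.127). It was 0.62, and called, without ADPKD replicate 1, and 12.2% of the exon bases are shared with a gene model on the same strand. *Bbc3* (chr7:16308393-16318205, plus strand), which encodes the BH3-only protein PUMA, had 20.1 and 24.4 in WT and 30.8 and 29.4 in ADPKD. The groups did not overlap, and the log2 change of 0.42 (SE 0.14, adjusted p = 0.0719) was below the 1.5-fold rule.

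None of the 3 anti-apoptotic members was called. *Bcl2* (chr1:106538178-106714274, minus strand), the founding survival gene of its family, was the lowest of them at FPKM of 2.34 and 2.70 in WT and 1.65 and 1.41 in ADPKD. Both ADPKD libraries were lower. The log2 change was -0.48 (SE 0.12, adjusted p = 0.0400), and the ratio of mean FPKM was 0.607; the gene was called with a pseudocount of 0.1, where the log2 change was -0.69. *Bcl2l1* (chr2:152780668-152831728, minus strand), which encodes BCL-XL, had 34.8 and 42.2 in WT and 34.8 and 38.1 in ADPKD, and the groups overlapped (log2 change -0.07, SE 0.14, adjusted p = 0.738). *Mcl1* (chr3:95658788-95663176, plus strand), which encodes a short-lived survival protein, was the most abundant member at 213 and 228 in WT and 243 and 282 in ADPKD. Its ADPKD values were both higher, with a log2 change of 0.25 (SE 0.13, adjusted p = 0.211) that was not called.

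**Figure D2:**
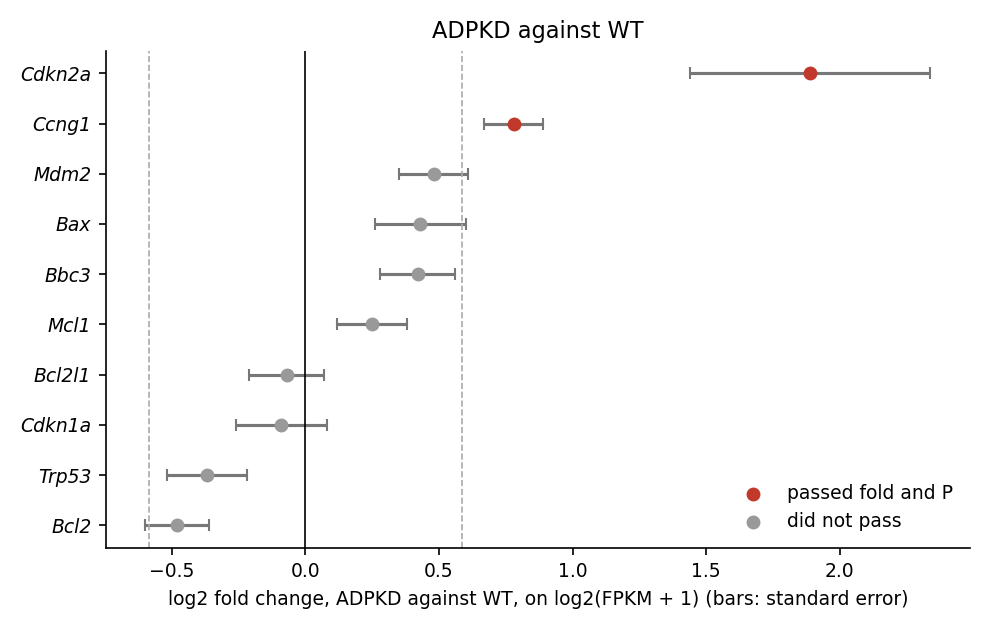
Log2 change of each regulator between ADPKD and WT on log2(FPKM + 1); bars are standard errors and dashed lines mark a 1.5-fold change. *Cdkn2a* at 1.89 and *Ccng1* at 0.78 passed the rule, and the other 8 lie between -0.48 and 0.48.

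The rest of the pathway was read from 7 lists that held 124 other tested genes. In ADPKD 33 of them were called higher and 18 lower, which is 41.1% beside 26.7% of all tested genes, with a median log2 change of 0.10 beside 0.03. The BCL-2 family stood highest, with 8 of 16 tested genes higher, 1 lower and a median of 0.55. Both pro-apoptotic and survival genes were among those that rose. Other pro-apoptotic genes of the list were not called, among them *Bad* (log2 change 0.01), *Bik* (0.38) and *Bmf* (-0.26). *Bok*, an effector related to BAX, had FPKM of 8.57 and 6.34 in WT and 54.6 and 87.8 in ADPKD (log2 change 3.07, SE 0.26, adjusted p = 0.00316). *Bak1*, the effector that works beside BAX, had 5.54 and 5.70 in WT and 13.4 and 14.3 in ADPKD (log2 change 1.17, SE 0.11, adjusted p = 0.00351). *Bid*, the BH3-only protein cut by caspase-8, had 1.23 and 1.27 against 3.39 and 3.46 (log2 change 0.97, SE 0.11, adjusted p = 0.00471). *Bcl2l11*, which encodes BIM, was called at a log2 change of 0.72 but had adjusted p = 0.0827 and 0.35 without ADPKD replicate 2, where it was not called. The 3 listed *Bcl2a1* genes, which encode a survival protein of leukocytes, also rose. Their copies are nearly identical, so reads could be split among them. Most leukocyte markers rose with them, and the part of cell makeup in this rise was not tested. *Bcl2l2*, a survival gene, fell from 16.5 and 18.9 to 11.0 and 8.68 (log2 change -0.79, SE 0.17, adjusted p = 0.0213).

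Of the p53 apoptosis targets 5 of 15 were higher and 3 lower, with a median of 0.29. *Pmaip1*, which encodes the BH3-only protein NOXA, had FPKM of 9.98 and 15.3 in WT and 79.0 and 99.3 in ADPKD, the highest rise of the list (log2 change 2.74, SE 0.23, adjusted p = 0.00314). *Perp*, a desmosomal and pro-apoptotic membrane gene, had 13.4 and 17.2 against 46.4 and 48.1 (log2 change 1.58, SE 0.15, adjusted p = 0.00359). In both genes the ADPKD libraries stood well apart from WT. *Apaf1*, the scaffold of the apoptosome, had 2.99 and 2.87 against 4.40 and 5.10 and was not called at a log2 change of 0.55. *Fas*, the death receptor gene, fell from 34.1 and 30.8 to 19.3 and 18.7 (log2 change -0.74, SE 0.12, adjusted p = 0.00963). *Dram1*, a lysosomal p53 target, was called lower at -0.94 with adjusted p = 0.0579, and was not called without ADPKD replicate 2, where the log2 change was -0.55, or without WT replicate 1, where it was -0.74.

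The p53 targets of arrest and repair were divided, with 9 of 30 higher, 6 lower and a median of -0.15. *Sfn*, which encodes the G2 checkpoint protein 14-3-3 sigma, rose from 80.2 and 86.4 to 399 and 667 (log2 change 2.62, SE 0.25, adjusted p = 0.00351), and *Zmat3*, an RNA-binding p53 target, from 1.24 and 1.27 to 4.19 and 5.53 (log2 change 1.37, SE 0.17, adjusted p = 0.00519). *Gadd45b*, a stress-induced gene, fell from 1130 and 1040 to 612 and 420 (log2 change -1.09, SE 0.20, adjusted p = 0.0143). *Btg2*, an antiproliferative gene, fell from 239 and 259 to 176 and 125 (log2 change -0.74, SE 0.18, adjusted p = 0.0340), and was not called without ADPKD replicate 2, at -0.50. *Gdf15*, a secreted stress cytokine, was called at a log2 change of 0.83 with adjusted p = 0.0645, and was not called at 0.45 without WT replicate 1, at 0.78 without ADPKD replicate 1 or at 0.88 without ADPKD replicate 2. *Gadd45a* and *Sesn2* were not called, with log2 changes of -0.13 and 0.31. Genes known to respond to tissue dissociation and heat shock moved in the same comparison: 10 of 18 were lower and 0 higher, and their FPKM summed to 14400 to 14800 in WT and 6920 to 8820 in ADPKD. Their part in the changes of *Gadd45b* and *Btg2* was not tested.

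Of the p53 regulators 4 of 21 were higher and 2 lower, with a median of 0.08. *Ppp1r13l*, which encodes the p53 inhibitor iASPP, was called at a log2 change of 1.04 (adjusted p = 0.0279), and *Ppp1r13b*, which encodes the p53 co-activator ASPP1, at -0.67 (adjusted p = 0.0174), though not without ADPKD replicate 1, at -0.55. *Mdm4*, the partner of MDM2, had 7.05 and 7.27 in WT and 5.0 and 4.78 in ADPKD and was not called at -0.47. *Trp63*, a relative of p53, did not pass the filter in any group, at 0.347 FPKM or below. Among the CDK inhibitors 2 of 6 were higher and 2 lower. *Cdkn2b*, the neighbour of *Cdkn2a* that encodes INK4B, rose from 7.04 and 8.18 to 29.0 and 33.2 (log2 change 1.90, SE 0.15, adjusted p = 0.00308), with close replicates where those of *Cdkn2a* were apart. *Cdkn2c* rose from 2.76 and 2.51 to 5.13 and 4.65 (log2 change 0.69, SE 0.12, adjusted p = 0.0137). *Cdkn1c* fell from 52.6 and 82.0 to 15.1 and 7.24 (log2 change -2.54, SE 0.37, adjusted p = 0.00798). It is abundant in podocytes, whose markers summed to 900 to 1230 FPKM in WT and 90.8 to 205 in ADPKD. The part of podocytes in the *Cdkn1c* values was not tested, and 30.7% of the *Cdkn1c* exon bases overlap an antisense gene. *Cdkn1b* was not called, at -0.09.

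Few genes of the execution machinery were called, with 2 of 25 caspases and inhibitors higher, 2 lower and a median of 0.05. The log2 change of *Casp9*, the initiator caspase of the mitochondrial route, was 0.00 (adjusted p = 0.991). *Birc2*, an inhibitor of apoptosis, fell from 47.3 and 37.7 to 18.2 and 15.4 (log2 change -1.28, adjusted p = 0.00562). Of the death receptors and adaptors 5 of 17 were higher and 3 lower, with a median of -0.11. *Tnf*, a ligand made mainly by macrophages, rose from 15.0 and 9.76 to 84.4 and 89.0 (log2 change 2.74, SE 0.22, adjusted p = 0.00302), and of the 13 tested macrophage and leukocyte markers 11 were higher. The part of cell makeup in the *Tnf* values was not tested. *Tnfrsf25* fell at a log2 change of -1.01 (adjusted p = 0.0232). Of 15 tested proliferation genes 7 were higher and 0 lower, with a median of 0.59, and their FPKM summed to 35.3 to 35.4 in WT and 45.6 to 64.5 in ADPKD.

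**Figure D3:**
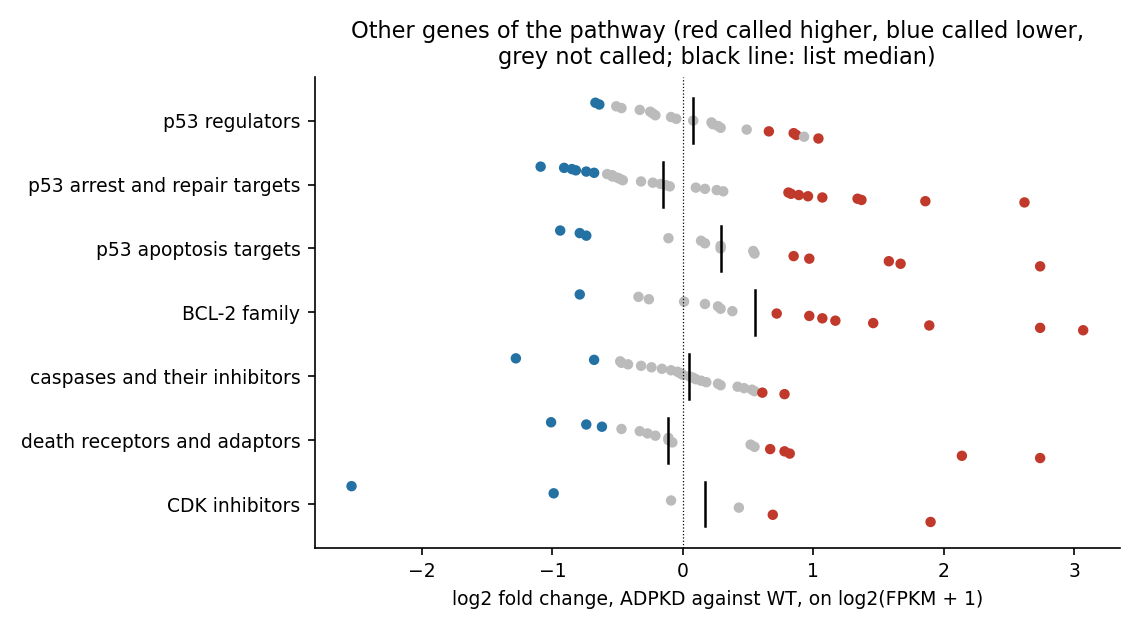
Log2 change between ADPKD and WT of each tested gene of the 7 pathway lists; red genes were called higher, blue lower, grey not called, and black lines are list medians. The BCL-2 family has the highest median, 0.55, and the arrest and repair targets the lowest, -0.15; the highest single value is that of *Bok*, 3.07.

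To ask how the regulators differed after treatment, ADPKD+MMPP was compared with ADPKD. *Mdm2*, *Bcl2l1*, *Cdkn1a*, *Trp53* and *Bbc3* were lower and *Ccng1*, *Bcl2* and *Mcl1* higher, while *Cdkn2a* and *Bax* were not called. These were 5 lower and 3 higher of 10, beside 43.0% and 27.9% of all tested genes, so the members' 8 calls stood next to a background of 70.9%. The libraries did not overlap for 9 of the 10, beside 87.8% of all tested genes. The median log2 change was -0.42 over the members and -0.36 over all tested genes. This comparison shares the ADPKD libraries with the comparison above.

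The change after MMPP ran with the structure of the genes. Across 12375 protein-coding genes the log2 change and the percentage of its exon bases that a gene has in a single annotated transcript had Spearman's rho of 0.649, against 0.0451 for ADPKD against WT; genes are not independent replicates and all points share the same libraries. The median log2 change went from -1.70 in the bin of the lowest shares to 1.09 in that of the highest. The 3 members called higher had shares of 74.9% to 90.4% and the other 7 had 18.0% to 51.9%. Since the depth, the share of odd read numbers and this relation set both ADPKD+MMPP libraries apart from the other 4, library and treatment cannot be told apart, and each member is given with a value centred within bins of like structure.

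**Figure D4:**
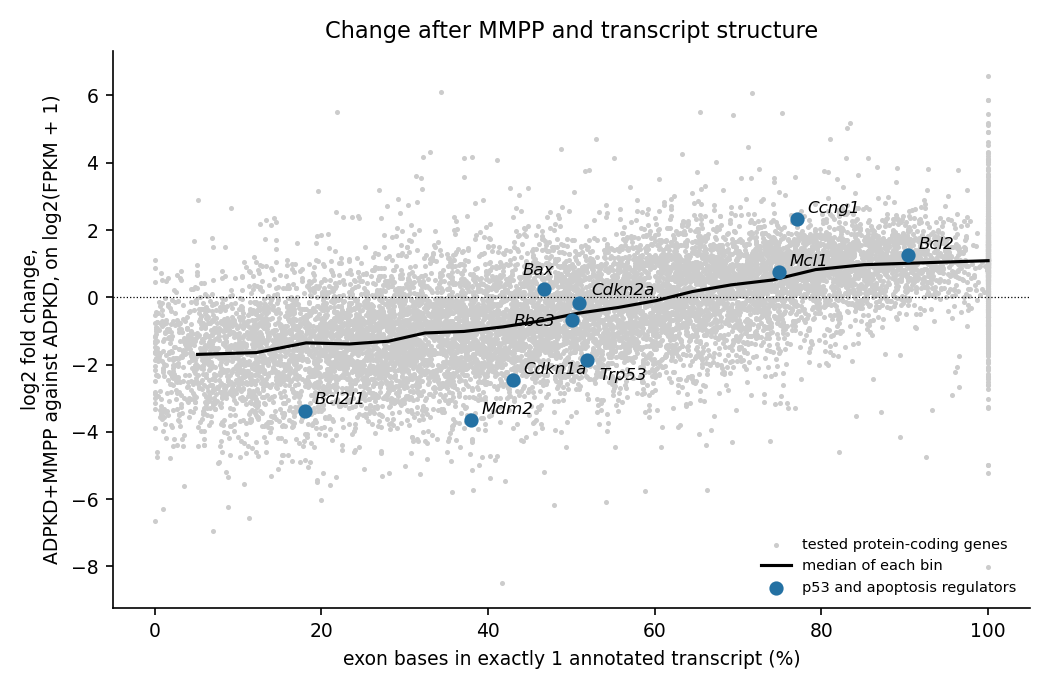
Log2 change between ADPKD+MMPP and ADPKD on log2(FPKM + 1) against the percentage of exon bases that belong to a single annotated transcript, for tested protein-coding genes (grey), the median of each bin of shares (line) and the 10 regulators (blue). The line climbs from -1.70 to 1.09; *Mdm2*, *Cdkn1a*, *Bcl2l1* and *Trp53* lie below it and *Ccng1* and *Bax* above it.

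*Mdm2* had the largest fall of the members, from FPKM of 49.3 and 57.7 in ADPKD to 3.50 and 3.21. Its log2 change was -3.64 (SE 0.13, adjusted p = 2.21e-05), with a share of 38.0% and a bin median of -1.01, and the centred log2 change was -2.46. In reads the ADPKD libraries held 8289 and 9406 and the ADPKD+MMPP libraries 210 and 178. *Trp53* went from 15.4 and 14.3 to 3.02 and 3.76, a log2 change of -1.85 (SE 0.15, adjusted p = 0.000141) and a centred one of -1.20. Both the transcript of p53 and that of its ligase were thus called lower in the deposited and in the centred values.

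*Cdkn1a* went from 128 and 175 to 26.6 and 26.3, with a log2 change of -2.46 (SE 0.17, adjusted p = 8.76e-05) and a centred one of -1.34. *Ccng1*, which carries the half-site letters as *Cdkn1a* does, went the other way, from 27.1 and 24.9 to 133 and 135. Its replicates were nearly equal, and its log2 change of 2.32 (SE 0.11, adjusted p = 3.55e-05) was the largest rise among the 10. The share of *Ccng1* was 77.1% with a bin median of 0.82, and its centred log2 change was 1.51. *Cdkn2a* had 2.89 and 2.97 in ADPKD+MMPP, between the ADPKD values of 1.70 and 6.39, and its log2 change of -0.18 (SE 0.45, adjusted p = 0.718) took the other sign, 0.54, without ADPKD replicate 2 and 0.47 when centred. Without ADPKD replicate 1 it was -0.91 and called.

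Among the apoptosis genes, *Bcl2l1* went from FPKM of 34.8 and 38.1 to 2.51 and 2.72, with a log2 change of -3.37 (SE 0.14, adjusted p = 2.59e-05). It had the lowest share of the 10, 18.0%, a bin median of -1.35 and a centred log2 change of -1.60. *Bcl2* went from 1.65 and 1.41 to 4.92 and 5.13, a log2 change of 1.25 (SE 0.12, adjusted p = 0.000295). It had the highest share, 90.4%, and its centred log2 change of 0.15 was not called. *Mcl1* went from 243 and 282 to 437 and 449, a log2 change of 0.76 (SE 0.13, adjusted p = 0.00253), and was not called when centred (0.34), with a common sum (0.45) or with quantile normalization (0.36). The calls for *Bcl2* and *Mcl1* were thus present in the deposited values and absent in the centred ones.

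*Bax* had FPKM of 44.8 and 43.0 in ADPKD+MMPP beside 32.2 and 42.6 in ADPKD. The log2 change of 0.24 (SE 0.17, adjusted p = 0.257) was not called, whereas the centred one, 1.12 (adjusted p = 0.00207), was. It was -0.06 when FPKM was rescaled to a common sum. *Bbc3* fell from 30.8 and 29.4 to 19.1 and 18.1, a log2 change of -0.66 (SE 0.14, adjusted p = 0.00566), with -0.47 and no call under TMM factors, and its centred log2 change was -0.01. Of the 8 calls 5 stood in both fits with the same direction: *Trp53*, *Mdm2*, *Cdkn1a* and *Bcl2l1* lower and *Ccng1* higher. The centred fit called 2 members higher and 4 lower, beside 58.4% of its genes.

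**Figure D5:**
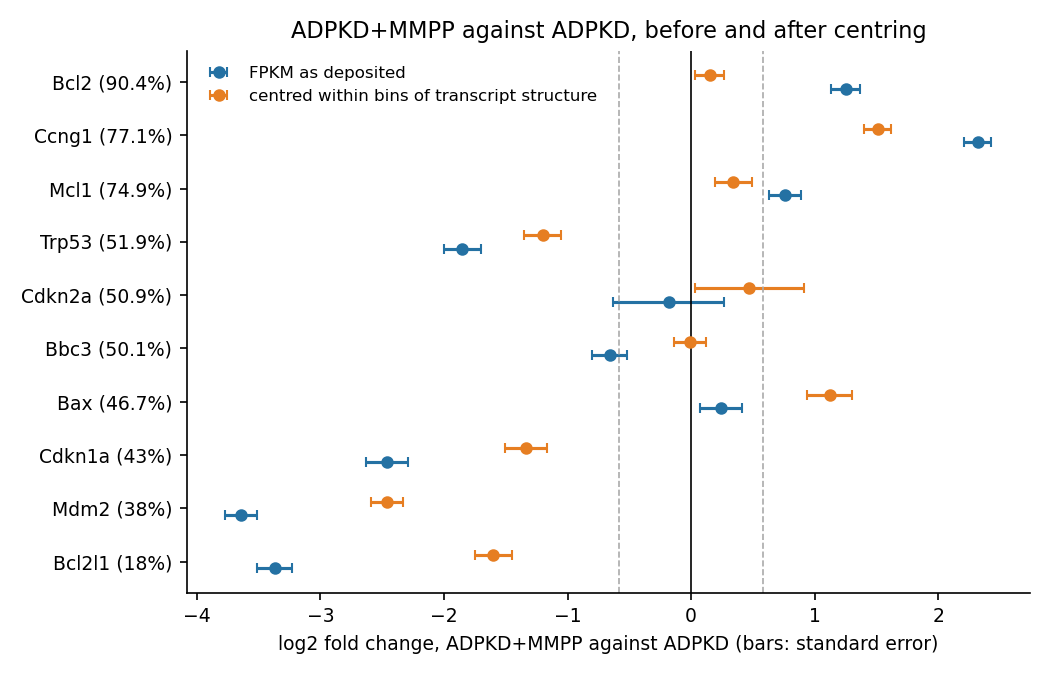
Log2 change between ADPKD+MMPP and ADPKD for each regulator, from the FPKM as deposited (blue) and after each library was centred within bins of transcript structure (orange); bars are standard errors, dashed lines mark a 1.5-fold change, and the percentage beside a name is its share of exon bases found in a single transcript. Centring moved *Bcl2* from 1.25 to 0.15 and *Bax* from 0.24 to 1.12 and left *Mdm2* at -2.46 and *Ccng1* at 1.51.

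Of the 124 other pathway genes 36 were higher and 57 lower after MMPP, or 75.0% beside 70.9%, with a median log2 change of -0.48. The p53 apoptosis targets had 3 of 15 higher and 11 lower as deposited, and 2 higher and 6 lower when centred. In the BCL-2 family 4 of 16 were higher and 7 lower, and 5 higher and 3 lower when centred. The arrest and repair targets had 11 of 30 higher and 12 lower, and 12 higher and 7 lower when centred; the p53 regulators had 4 of 21 higher and 10 lower, and 8 higher and 7 lower when centred. Caspases and inhibitors had 9 of 25 higher and 10 lower, and 6 higher and 7 lower when centred. Death receptors and adaptors had 4 of 17 higher and 10 lower, and 5 in each direction when centred. CDK inhibitors had 2 of 6 in each direction, and 2 higher and 1 lower when centred. *Pmaip1* fell from FPKM of 79.0 and 99.3 to 25.7 and 28.8, with a log2 change of -1.67 and a centred one of 0.44 that was not called. *Gdf15* fell from 266 and 249 to 4.48 and 5.34, with a log2 change of -5.45 and a centred one of -4.34. *Fas* fell from 19.3 and 18.7 to 1.40 and 1.42, with -3.05 and -1.33 when centred. *Btg2* rose from 176 and 125 to 900 and 885, with 2.58 and 1.47 when centred. Of the 18 dissociation and heat shock genes 9 were higher and 6 lower after MMPP, and 8 higher and 3 lower when centred. Of all tested genes 27.9% were higher and 43.0% lower. The FPKM of these 18 summed to 6920 to 8820 in ADPKD and 15100 to 15300 in ADPKD+MMPP. Their part in the *Btg2* values was not tested. Both treated libraries listed *Bak1* at 0; 25.5% of its exon bases overlap an antisense gene.

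Against WT, ADPKD+MMPP had 5 members higher and 4 lower, beside 30.1% and 43.8% of all tested genes; the 9 calls stood beside a background of 73.9%, and the libraries did not overlap for 10 of the 10, beside 91.9%. *Ccng1* had a log2 change of 3.10, *Cdkn2a* of 1.70, *Mcl1* of 1.0, *Bcl2* of 0.78 and *Bax* of 0.66 above WT. Below WT were *Bcl2l1* at -3.44, *Mdm2* at -3.16, *Cdkn1a* at -2.54 and *Trp53* at -2.23. *Bbc3*, at FPKM of 19.1 and 18.1 beside 20.1 and 24.4 in WT, was not called at -0.24 (adjusted p = 0.154). When centred, 3 members were called higher and 4 lower, beside 62.5% of genes; *Cdkn1a* was lower at -1.41 and *Bcl2* took the other sign at -0.47.

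The order of levels differed between the groups. FPKM in WT ran from *Mcl1* at 221 ± 10.1 and *Cdkn1a* at 159 ± 1.31 through *Bcl2l1*, *Mdm2*, *Bax*, *Bbc3*, *Trp53* and *Ccng1*, which lay between 38.5 and 14.8, to *Bcl2* at 2.52 ± 0.256 and *Cdkn2a* at 0.208 ± 0.0607 (SD, n = 2 each). In that order *Bcl2l1* and *Mdm2* overlapped, as did *Bbc3* and *Trp53*. In ADPKD the first places were unchanged, *Mdm2* at 53.5 came next, *Bax* and *Bcl2l1* overlapped at 37.4 and 36.4, and *Cdkn2a* at 4.05 ± 3.31 stood above *Bcl2* at 1.53 ± 0.168 (SD, n = 2 each). In ADPKD+MMPP *Mcl1* at 443 ± 8.20 was followed by *Ccng1* at 134 ± 1.52 and *Bax* at 43.9 ± 1.26, and *Bcl2l1* was lowest at 2.61 ± 0.146 (SD, n = 2 each). There *Trp53* and *Mdm2* overlapped at 3.39 and 3.35.

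The genes whose 6 values were most like those of *Cdkn1a*, by the root mean square difference of log2(FPKM + 1) centred on its mean, were *Rab40c* at 0.0565, *Gm12868* at 0.0580 and *Maf1* at 0.0611 among 14861 genes. Those most like *Trp53* were *Rabep2* at 0.0808, *Xrcc1* at 0.0840 and *Pkn3* at 0.0860. All of them were lower in ADPKD+MMPP than in the other libraries. This follows from their choice, which matched them to *Cdkn1a* or *Trp53* over the same 6 libraries, and it is no separate result.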

How the data were processed

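The series holds 6 polyA RNA-seq libraries of kidney cells bound by DBA, 2 in each of 3 groups taken from the sample labels. According to the methods and the submitters' processing notes the authors aligned reads to mm10 (GRCm38) with HISAT2 2.1.0, counted them on genes with featureCounts 1.6.0 and deposited FPKM, which divides the reads of a gene by its exon length and by library size. The annotation release, the strand setting and the program that made FPKM are not given in the sources used here. Positions and exon lengths came from GENCODE vM21, in which 53186 of the symbols matched. FPKM times exon length, scaled by the value of 1 read, came out whole within 0.02 reads for 98.1% to 98.9% of the low values. These recovered reads served to describe depth, the share of odd read numbers and the reads of *Cdkn2a* and *Mdm2*, and entered no test. Counting error was not modelled per gene.

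Genes that reached an FPKM of 1 in 2 or more libraries were tested with limma 3.58.1 in R 4.3.3 on log2(FPKM + 1). All 6 libraries entered 1 fit, and p-values were adjusted by Benjamini-Hochberg over all 14862. A call needed a fold change of at least 1.5 and P under 0.05. A count test was not run, because the deposited values are FPKM. For centring, the median of each library within 18 bins of the share of exon bases in exactly 1 annotated transcript was subtracted, over protein-coding genes. The 10 members, the gene lists and the centring were chosen with earlier results of these data known, so their counts are descriptions. The genes named were the 10 members, 20 further pathway genes, the called gene highest and the called gene lowest in each of the 7 lists between ADPKD and WT, the 3 genes most like *Cdkn1a* and *Trp53*, and *Pkd1*; genes that carry a sentence on another list are named as its members. Some genes that the rule chose are not reported here. Alternatives covered the pseudocount, filter, scaling, variance trend, libraries in the fit, replicate block, thresholds, centring and leaving out each library. The test was checked on simulated data. Promoter sequences are from RefSeq on GRCm38.p6.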

Additional observations from a re-analysis of the deposited data

How the results depend on the processing

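The counts of members called rest on 2 libraries a group and on scaling. Between ADPKD and WT the members called higher were 1 in place of 2 with a filter at FPKM of 5 and with a 2-fold rule, and 2 to 4 when each library was left out; the 4 came without ADPKD replicate 1, where *Mdm2* (log2 change 0.59) and *Bax* (0.62) were added. The members called lower were 1 in place of 0, *Bcl2*, with a pseudocount of 0.1 and with centring. Between ADPKD+MMPP and WT 3 in place of 5 members were called higher with a filter at FPKM of 5, a common sum, quantile normalization, a 2-fold rule and centring. *Cdkn2a* and *Bcl2* did not pass the filter at FPKM of 5. They were not tested with it in any comparison, so its lower counts are not calls lost in a test. Between ADPKD+MMPP and ADPKD the counts were 2 to 3 higher and 4 to 6 lower. Signs turned for *Cdkn1a* between ADPKD and WT (-0.31 to 0.13 over the libraries left out), for *Bcl2l1* (0.08 when centred, -0.21 to 0.06 over the libraries left out), for *Casp9* (-0.11 to 0.11), *Gadd45a* (-0.26 to 0.00) and *Cdkn1b* (-0.24 to 0.06) over the libraries left out, for *Cdkn2a* after MMPP (0.44 with quantile normalization, 0.47 centred, -0.91 to 0.54 over the libraries left out), for *Bax* after MMPP (-0.06 with a common sum), and between ADPKD+MMPP and WT for *Bbc3* (0.41) and *Bcl2* (-0.47) when centred. The cause was not tested. The median log2 change of all genes between ADPKD+MMPP and ADPKD was -0.36 as deposited, -0.22 with TMM factors, -0.55 with a common sum, 0.10 with quantile normalization and 0.15 centred. Over all genes 3970 were called between ADPKD and WT, 1951 with a 2-fold rule and 2583 with a filter at FPKM of 5. With the replicate block the members' calls were the same, and 4055, 10595 and 11038 genes were called in the 3 comparisons in place of 3970, 10540 and 10984. Same-numbered libraries deviated together with r of 0.129 for WT and ADPKD, -0.00796 for WT and ADPKD+MMPP and 0.0137 for ADPKD and ADPKD+MMPP. The labels give a replicate number only, and whether same-numbered libraries share a batch is not given in the sources used here.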

Other observations

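Ratios of FPKM within a library set the opposed members side by side, and they carry no test. *Bax* to *Bcl2* was 10.7 and 11.0 in WT, 19.6 and 30.2 in ADPKD and 9.10 and 8.37 in ADPKD+MMPP. *Bax* to *Bcl2l1*, with another survival gene below the line, was 0.720 and 0.705 in WT, 0.926 and 1.12 in ADPKD and 17.8 and 15.8 in ADPKD+MMPP, so the 2 ratios order the treated libraries differently. *Mdm2* to *Trp53* was 1.80 and 2.12 in WT, 3.21 and 4.05 in ADPKD and 1.16 and 0.853 in ADPKD+MMPP. *Cdkn1a* to *Ccng1*, a pair of p53 targets, was 10.9 and 10.6 in WT, 4.72 and 7.02 in ADPKD and 0.200 and 0.195 in ADPKD+MMPP. The members of these pairs differ in transcript structure, and the part of it in the ADPKD+MMPP ratios was not tested.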
